A study of Mus musculus with 11 samples.

Results

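Voltage-gated sodium and calcium channels, HCN channels, TRP channels of the TRPC, TRPV and TRPM families and PIEZO channels set how a neuron fires and how calcium enters it. Their genes were taken by symbol: sodium channel alpha and beta subunits (Scn), calcium channel alpha1, alpha2delta, beta and gamma subunits (Cacn), Hcn, Trpc, Trpv, Trpm and Piezo. The rule found 51 of the 19444 genes of the table. They were 9 sodium alpha, 3 sodium beta, 5 calcium alpha1, 3 alpha2delta, 4 calcium beta, 6 calcium gamma, 4 HCN, 5 TRPC, 5 TRPV, 6 TRPM genes and 1 PIEZO gene. Scn10a, Trpm8 and Piezo1 were not analysed here. The rule used symbols and no measured value.

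The cells came from the stellate ganglion, a ganglion of the sympathetic chain at the level of the lower neck, of 6 male C57BL/6J mice aged 6 to 8 weeks with no other genotype or drug treatment in the labels. All mice carried CTB-488 from the forelimb and CTB-555 from the interscapular brown fat, both retrograde tracers given 3 days earlier. Each of 3 sets pooled the ganglia of 2 mice. The set is therefore the replicate (n = 3), and no value belongs to a single mouse. Cells were sorted into 96-well plates, with 4 plates each for Sets 1 and 2 and 3 plates for Set 3, and no cell of the table could be tied to a sort gate.

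The table holds 878 cells with 30518080 counts, from 2050165 to 3373157 counts per plate. The authors' annotation numbers 4 clusters without naming them. Cluster 1 held 388 cells with a median of 28396 counts, cluster 2 held 335 cells with 40121, and cluster 4 held 54 cells with 35488.5. Cluster 3 split by depth into 48 cells with a median of 68058 counts and 53 cells with 2658 counts. The cut fell in a gap between cells of 9804 and 18608 counts. Markers of noradrenergic sympathetic neurons, summed in each set, stood at 144 to 159 counts per 10000 in cluster 1, 162 to 176 in cluster 2, 135 to 154 in the high-count cells of cluster 3 and 81.5 to 93.7 in cluster 4. All 10 of the 11 listed markers that the table holds, Th and Dbh among them, were above 0 in these 4 classes. Markers of cholinergic sympathetic neurons, such as Chat and Vip, stood at 65.4 to 74.4 in cluster 4 and at 0.942 to 4.08 in the other 3 classes.

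In a sympathetic neuron, sodium channels carry the upstroke of the action potential, and their beta subunits change gating and placement in the membrane. Calcium channels of the N type, with an alpha1 pore and alpha2delta and beta subunits, admit the calcium that triggers noradrenaline release. HCN channels carry an inward current at negative voltage. TRPC and TRPM channels are cation channels opened by lipid, calcium or metabolic signals. Most calcium channel gamma genes encode TARPs, which are auxiliary subunits of AMPA-type glutamate receptors.

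All levels below are counts per 10000 counts of a cell, averaged over the cells of a class in 1 set. They come from the 3' ends of transcripts and are compared within a gene, not between genes. Of the 51 genes, 35 were above 0 on all 11 plates. Another 8, among them Cacnb2, Piezo2, Scn4a, Trpc4, Trpm1, Trpv1 and Trpv4, had counts on 1 plate each, always in Set 2. Of 213884 pairs of a gene and a plate, 11832 had a count in exactly 3 cells and 8720 in exactly 4, against 635 with a count in 1 or 2 cells. Whether genes were filtered within plates is not stated in the labels or notes. A level of 0 is therefore given as listed at 0, and no limit is drawn from it.

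The start regions of the genes were looked up in RefSeq (GRCm38.p6, 250 bases before to 50 after the start), which gave windows for 40 of the 51. The windows of 4 genes that differed between clusters are printed here, 5′ to 3′ on the strand of the gene, because their levels differed between the classes. Capitals mark motifs found on either strand. The GC box is GGGCGG, which transcription factors of the Sp family bind. The E-box searched is CAGCTG, which basic helix-loop-helix factors bind. The TATA box is TATAAA, where the general transcription machinery binds.
Trpm2, chr10:77969823-77970122, minus strand: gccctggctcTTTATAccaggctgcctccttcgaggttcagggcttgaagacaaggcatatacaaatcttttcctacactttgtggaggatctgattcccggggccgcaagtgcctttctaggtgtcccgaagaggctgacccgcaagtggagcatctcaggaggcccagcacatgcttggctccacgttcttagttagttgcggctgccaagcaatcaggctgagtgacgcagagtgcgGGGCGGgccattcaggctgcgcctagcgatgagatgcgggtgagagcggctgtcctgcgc
Cacng5, chr11:107915006-107915305, minus strand: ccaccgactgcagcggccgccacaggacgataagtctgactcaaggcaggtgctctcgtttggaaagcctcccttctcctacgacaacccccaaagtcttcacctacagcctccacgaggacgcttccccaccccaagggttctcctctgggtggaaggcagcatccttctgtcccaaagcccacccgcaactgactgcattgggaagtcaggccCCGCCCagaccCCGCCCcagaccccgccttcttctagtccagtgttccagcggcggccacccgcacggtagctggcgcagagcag
Cacng2, chr15:78119231-78119530, minus strand: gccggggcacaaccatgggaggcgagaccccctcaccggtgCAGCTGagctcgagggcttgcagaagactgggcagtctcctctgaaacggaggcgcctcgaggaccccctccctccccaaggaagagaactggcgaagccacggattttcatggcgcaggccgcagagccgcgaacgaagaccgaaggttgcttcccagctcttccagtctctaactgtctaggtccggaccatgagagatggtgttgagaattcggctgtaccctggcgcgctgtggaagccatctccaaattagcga
Cacna2d1, chr5:15934441-15934740, plus strand: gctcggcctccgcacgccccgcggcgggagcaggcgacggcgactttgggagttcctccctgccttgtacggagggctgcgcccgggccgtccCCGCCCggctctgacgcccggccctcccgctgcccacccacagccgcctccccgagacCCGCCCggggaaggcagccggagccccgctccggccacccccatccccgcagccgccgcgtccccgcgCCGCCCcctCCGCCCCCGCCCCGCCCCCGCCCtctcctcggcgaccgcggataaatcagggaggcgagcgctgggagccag

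The Cacna2d1 window held the GC box several times and had a GC content of 80%, with 42 CpG dinucleotides. The Trpm2 window held a GC box and the letters TATAAA, that of Cacng5 held the GC box only, and that of Cacng2 held the E-box only. The TATAAA match of Trpm2 lay on the opposite strand at the upstream end of the window, far from the start. Over the family, 17 of 40 windows held the GC box, against 35.7% of all 32851 windows. The E-box CAGCTG was in 14 of 40, against 16.3% of all windows, and TATAAA in 4 of 40, against 13.6%. TGACGTCA, the cyclic AMP response element, and TAATTA, a homeodomain core, were in none of the 40, against 1.79% and 5.29% of all windows. The median window of the family had 13 CpG dinucleotides and a GC content of 59.8%, against 7 and 52.7% over all windows. These are matches of letters and were not tied to the levels below.

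Several of the genes lie side by side. In GENCODE M21 (GRCm38), Scn3a (chromosome 2, 65457118 to 65567627), Scn2a (65620771 to 65767447), Scn1a (66270778 to 66440840), Scn9a (66480080 to 66634962) and Scn7a (66673425 to 66784914) form the sodium channel cluster of chromosome 2. Cacng4 (chromosome 11, 107732357 to 107794557) and Cacng5 (107874605 to 107915055) are neighbours, and their levels ran in opposite directions in cluster 4. The last exons of Cacna1d, Cacnb4, Hcn3, Scn2b, Scn9a, Trpc6 and Trpm3 overlap a gene on the opposite strand, and that of Cacng8 a gene on the same strand. No label or note used here says whether the authors' counting used strand, so levels of these genes are uncertain to that extent.

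Cluster 1 and cluster 2, the large noradrenergic clusters, differed most clearly in a sodium beta subunit and a TRPM channel. Of 31 channel genes that passed the filter of 0.05 counts per 10000, 3 were higher in cluster 1 and 4 were lower at a limma adjusted p under 0.05. Over all 10525 genes tested, 3.41% were called higher and 4.76% lower. Clusters were cut from the same cells, so a p-value here says how regularly a difference recurred from set to set. The median difference of the 31 genes was -0.05, beside -0.01 over all genes. Of all genes called, 41.7% were higher, against 52.0% in thinned cells.

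Scn3b encodes a beta subunit that binds sodium channels without a covalent bond (chromosome 9, 40269217 to 40291618). It stood at 1.42, 1.77 and 1.65 in cluster 1 of Sets 1, 2 and 3, and at 0.511, 0.646 and 0.506 in cluster 2. The lowest set of cluster 1 was above the highest of cluster 2. The level was 2.91-fold higher, and the difference was 0.71 (SE 0.06) on the log2(1 + counts per 10000) scale, with a limma adjusted p of 1.79e-08. After each cell was thinned to 15000 counts, 86.4% of 367 cells of cluster 1 held a count of Scn3b (95% Clopper-Pearson interval 82.4% to 89.7%), against 52.9% of 323 cells of cluster 2 (47.3% to 58.5%). Intervals of this kind, here and below for Trpm2 and Cacng5, pool the cells of all sets. They leave out the spread between sets and describe the cells only, as the set is the replicate.

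Scn2b, a beta subunit whose product is bound to the alpha subunit by a disulfide bridge, stood at 0.81, 0.697 and 0.939 in cluster 1 and at 0.873, 1.02 and 1.16 in cluster 2, with a limma adjusted p of 0.0976. Each set was lower in cluster 1 than in cluster 2, but the gene was not called. None of the 6 tested sodium alpha genes was called. Scn9a, the sodium channel known for pain insensitivity when lost and present in sympathetic neurons, had means of 1.81 ± 0.195 and 1.67 ± 0.25 (SD, n = 3 sets), with a limma adjusted p of 0.87.

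Trpm2, a cation channel opened by ADP-ribose and oxidative stress (chromosome 10, 77907722 to 77970563), was lower in cluster 1. It stood at 0.293, 0.315 and 0.31 in cluster 1 and at 0.763, 0.757 and 0.634 in cluster 2, with no overlap. The level was 0.426 times that of cluster 2, a difference of -0.38 (SE 0.05) and a limma adjusted p of 9.13e-06. In thinned cells, 36.5% of cluster 1 cells (31.6% to 41.7%) and 66.9% of cluster 2 cells (61.4% to 72%) held a count. Among the TRPM genes tested, Trpm4 and Trpm7 were not called here.

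Of the 4 calcium channel gamma genes tested, 3 differed, not all in the same direction. Cacng2, a TARP also called stargazin (chromosome 15, 77991748 to 78120028), stood at 0.0706, 0.127 and 0.0737 in cluster 1 and at 0.313, 0.451 and 0.261 in cluster 2. Cluster 1 was lower in every set, at 0.264 times the level, with a difference of -0.28 (SE 0.05) and a limma adjusted p of 0.000387. Cacng3, another TARP, was higher in cluster 1, at 0.518, 0.556 and 0.639 against 0.335, 0.239 and 0.461. Its sets did not overlap, and the difference was 0.19 (SE 0.05; limma adjusted p = 0.00931). Cacng5 was lower in cluster 1, at 0.0492, 0.0549 and 0.0633 against 0.157, 0.168 and 0.234. Its difference was -0.15 (SE 0.04; limma adjusted p = 0.0441).

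Among the calcium channel subunits proper, Cacnb3, a beta subunit found in N-type complexes, was higher in cluster 1. Its levels were 1.49, 1.43 and 1.69 in cluster 1 and 1.03, 1.09 and 1.21 in cluster 2, without overlap (difference 0.25, SE 0.06, limma adjusted p = 0.0113). Cacna2d2, an alpha2delta subunit that binds gabapentin, was lower, at 0.131, 0.133 and 0.0913 against 0.215, 0.29 and 0.235 (difference -0.15, SE 0.03, limma adjusted p = 0.00419). Neither pore gene of the presynaptic channels was called. Cacna1b, the N-type pore, had means of 0.634 ± 0.114 and 0.682 ± 0.195 (SD, n = 3; limma adjusted p = 0.837), and Cacna1a, the P/Q-type pore, 0.252 ± 0.033 and 0.32 ± 0.0408 (limma adjusted p = 0.505). The HCN genes Hcn2, Hcn3 and Hcn4 were not called.

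Scn3b and Trpm2 were called in each of the 13 alternatives run. The other 5 genes lost the call when cells were thinned to one depth, with differences that kept their sign (Cacng2 -0.26, Cacng5 -0.14, Cacna2d2 -0.13, Cacnb3 0.27 and Cacng3 0.15). Without Set 2 or without Set 3, 3 genes were called. Without the set as a block 2 were called, and 17 were called with voom weights on summed counts, beside 276 and 2351 of all 10525 genes.

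**Figure D1:**
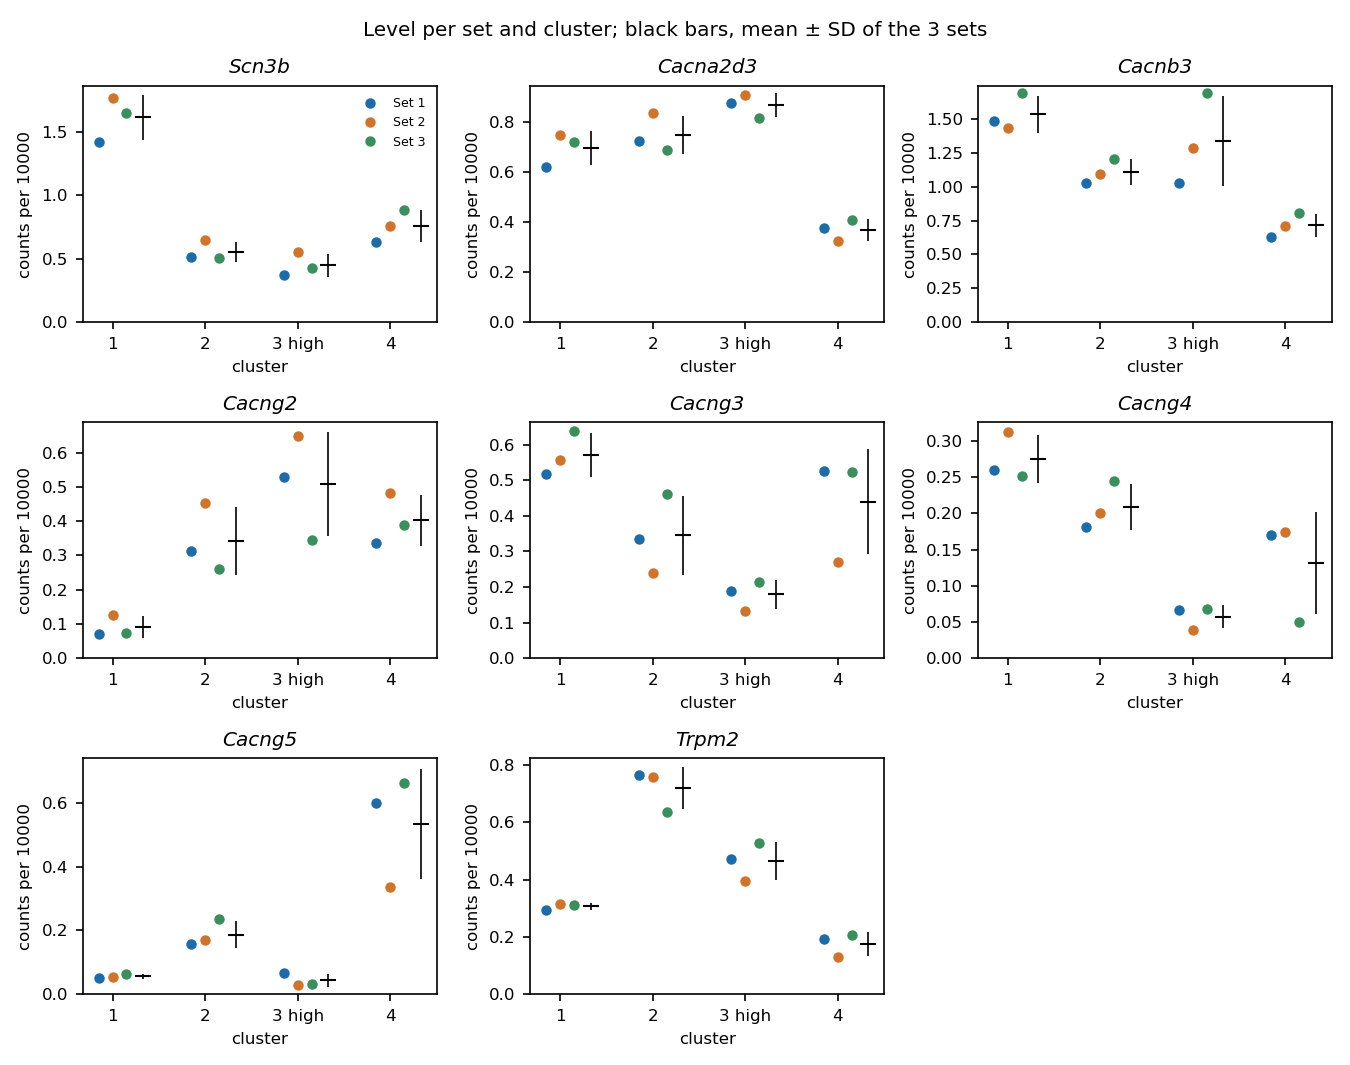
Levels of 8 channel genes in counts per 10000 (y axis) in clusters 1 and 2, the high-count cells of cluster 3 and cluster 4 (x axis), with 1 point per set and black bars for the mean ± SD of the 3 sets. Scn3b was highest in cluster 1 in each set, Cacng5 in cluster 4, and Trpm2 in cluster 2.

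Among the cluster comparisons, that of the cholinergic cluster 4 had the most called channel genes in the main fit. It also had the most called genes in all, 2437 of 10525. With voom weights 14 channel genes were called in cluster 4, beside 2081 of all 10525 genes. Between clusters 1 and 2 that setting called 17, beside 2351 of all genes. Against the mean of clusters 1 and 2, 10 of the 31 genes were higher and 7 were lower, where 11.6% of all genes tested were called higher and 11.6% lower. The median difference was 0.04, beside -0.00 over all genes. Markers of glia summed to 2.26 to 7.05 counts per 10000 in the sets of cluster 4, against 1.55 to 2.27 in cluster 1 and 1.66 to 4.36 in cluster 2. Without the cells richest in glial markers, 16 channel genes were called, beside 2399 of all 10463 genes.

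Of the sodium beta genes, Scn2b was lower in cluster 4, at 0.54, 0.511 and 0.734 (difference -0.25, SE 0.05, limma adjusted p = 0.000374). Its Set 3 value overlapped Set 2 of cluster 1. Scn3b stood at 0.631, 0.757 and 0.886, between clusters 1 and 2, and was lower than their mean (difference -0.19, SE 0.05, limma adjusted p = 0.00683).

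Of the 6 sodium alpha genes tested, 2 were called, both higher. Scn8a, the main sodium channel of nodes of Ranvier and axon initial segments, stood at 0.37, 0.3 and 0.328 in cluster 4, above every set of clusters 1 and 2 (means 0.192 and 0.228). The difference was 0.12 (SE 0.03; limma adjusted p = 0.0132), but it was -0.02 in thinned cells. Scn7a, a channel known for sodium sensing and also present in glia, stood at 0.0616, 0.255 and 0.124, overlapping clusters 1 and 2 (difference 0.08, SE 0.03, limma adjusted p = 0.0371). It was called also without the cells richest in glial markers, but not in thinned cells (limma adjusted p = 0.452), without the replicate block or without Set 2 or Set 3. Scn9a at 1.96, 2.25 and 1.27 and Scn3a, an embryonic sodium channel, at 0.648, 0.771 and 0.515 were not called (limma adjusted p = 0.588 and 0.27).

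Calcium channel subunits differed in both directions. Cacna2d3, an alpha2delta subunit that does not bind gabapentin, stood at 0.378, 0.323 and 0.407 in cluster 4, where all sets of clusters 1 and 2 were at 0.622 or more. It was 0.51 times the mean of clusters 1 and 2 (difference -0.30, SE 0.05, limma adjusted p = 2.86e-05). Cacnb3 stood at 0.632, 0.708 and 0.803, below every set of clusters 1 and 2 (difference -0.40, SE 0.05, limma adjusted p = 5.61e-06). Cacnb4, a beta subunit, was lower as well, at 0.0613, 0.0853 and 0.0291 (limma adjusted p = 0.0088). These 3 genes separated cluster 4 from clusters 1 and 2 without overlap.

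Higher in cluster 4 were Cacna1c, an L-type pore, at 0.139, 0.0459 and 0.112 (difference 0.07, SE 0.02, limma adjusted p = 0.0303), and Cacna2d1 at 0.915, 1.86 and 0.68 (difference 0.15, SE 0.05, limma adjusted p = 0.046). Both overlapped sets of cluster 2, and the Cacna2d1 difference was 0.04 in thinned cells. Cacna1b, at 0.753, 0.663 and 0.515, was not called (limma adjusted p = 0.95).

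The gamma genes included the largest increase among the tested channel genes on the log2 scale. Cacng5 stood at 0.601, 0.336 and 0.662 in cluster 4, and no set of cluster 1, cluster 2 or the high-count cells of cluster 3 exceeded 0.234. It was 4.4-fold higher than the mean of clusters 1 and 2, with a difference of 0.40 (SE 0.04) and a limma adjusted p of 8.99e-08. In thinned cells, 50.9% of 53 cells of cluster 4 held a count of Cacng5 (36.8% to 64.9%), against 7.9% in cluster 1 and 22.9% in cluster 2. Cacng2 was also higher, at 0.336, 0.483 and 0.39 (difference 0.19, SE 0.04, limma adjusted p = 0.00161), though its range overlapped that of cluster 2. Cacng4, the neighbour of Cacng5, was lower, at 0.17, 0.174 and 0.05 (difference -0.11, SE 0.03, limma adjusted p = 0.0109). Cacng4 was below every set of clusters 1 and 2.

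Of the HCN genes, Hcn3 stood at 0.47, 0.424 and 0.377 in cluster 4 and was higher than in clusters 1 and 2 (difference 0.14, SE 0.04, limma adjusted p = 0.011), with no overlap. Hcn2, at 0.221, 0.222 and 0.334, and Hcn4, at 0.106, 0.14 and 0.221, were not called (limma adjusted p = 0.0631 and 0.244).

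Trpm2, already lower in cluster 1, was lower again in cluster 4, at 0.191, 0.129 and 0.206 (difference -0.33, SE 0.04, limma adjusted p = 3.39e-06). Each of these values was below every set of clusters 1 and 2. In thinned cells 17% of cluster 4 cells held a count (8.07% to 29.8%). Trpm4, a channel for sodium and potassium that calcium opens, was higher, at 0.13, 0.152 and 0.138 against means of 0.0842 and 0.0716 (difference 0.07, SE 0.02, limma adjusted p = 0.00862). Trpc6, which diacylglycerol opens, stood at 0.277, 0.129 and 0.0964, against 0.0131, 0.00898 and 0.0192 in cluster 1 and 0.0594, 0.0615 and 0.0461 in cluster 2. The groups did not overlap. Trpc6, one of the 10 genes counted as higher, passed the filter only through cluster 4, so these values are a description. Trpc7, a close relative of Trpc6, did not pass the filter and was not tested. It was listed at 0 in Set 1 and Set 3 of cluster 4 and stood at 0.00509 in Set 2, against 0.0207, 0.0474 and 0.0444 in cluster 1 and 0.0607 to 0.0818 in the sets of cluster 2.

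Cacna2d3, Cacnb3, Cacng5 and Trpm2 were among the genes called in each of the 13 alternatives. Thinning left 7 of the 17 called, Cacna1c and Cacng4 among them, and without the set as a block 9 were called.

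**Figure D2:**
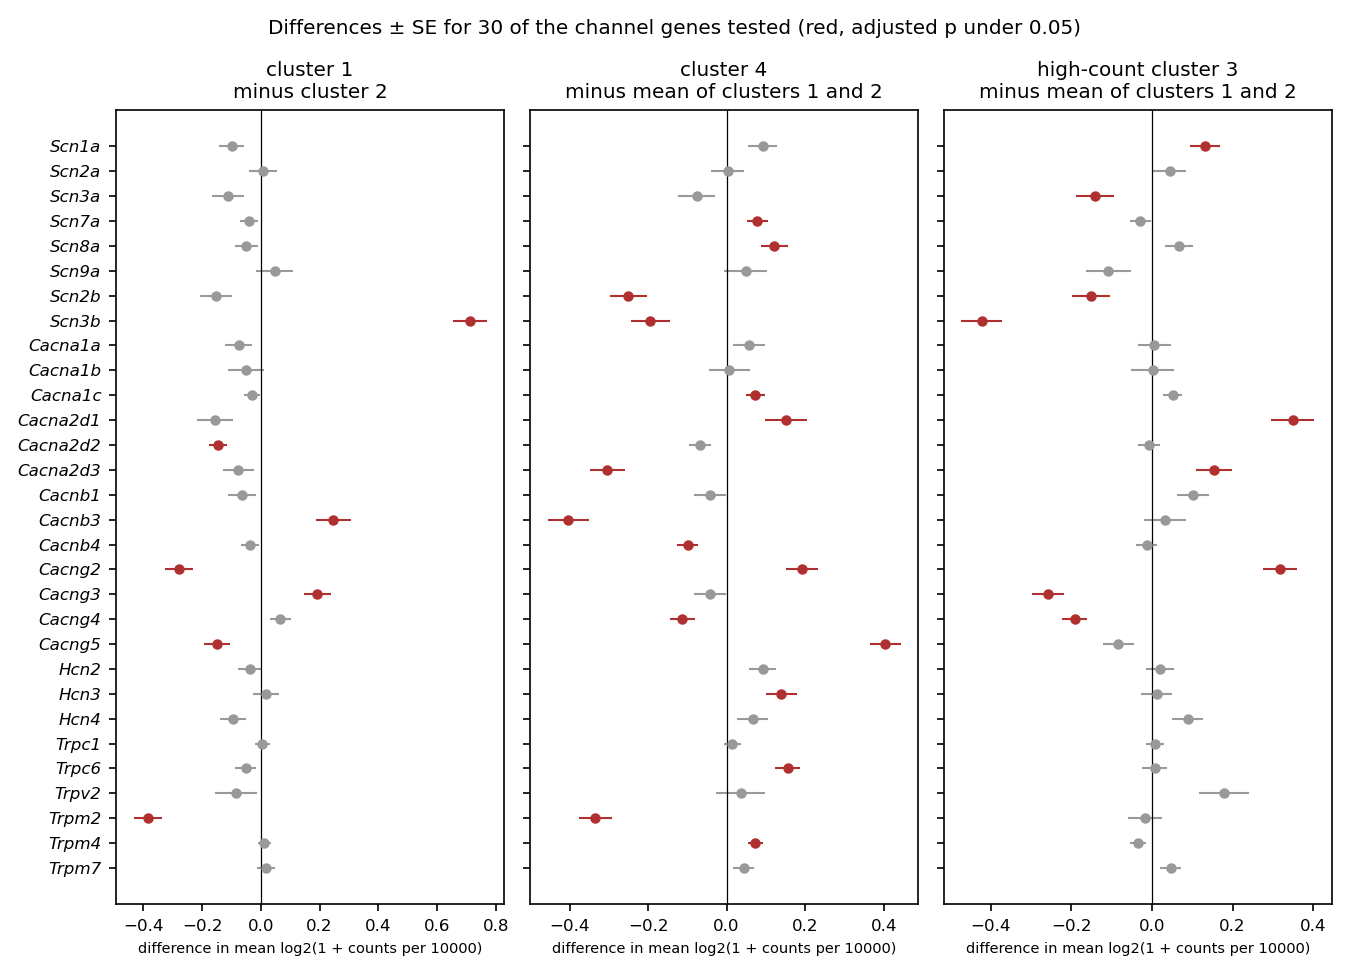
Differences in mean log2(1 + counts per 10000) with their SE (x axes) for 30 tested channel genes (y axis) in the 3 cluster comparisons, with red points for a limma adjusted p under 0.05. Scn3b lies furthest to the right in the comparison of cluster 1 with cluster 2, and Cacng5 in that of cluster 4 with both.

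The high-count cells of cluster 3 were compared with the same clusters 1 and 2, so the values of this comparison and of cluster 4 share their controls. Of the 31 genes, 5 were higher and 5 were lower, and over all genes tested 10.8% were called higher and 5.03% lower. The median difference was 0.01, beside 0.02 over all genes. These cells have more counts than those of clusters 1 and 2. The share of all called genes that were higher was 68.2%, against 52.0% in thinned cells and 50.7% with median-of-ratios factors. Among the channel genes, 3 were higher and 4 lower in thinned cells.

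Scn3b was lower than the mean of clusters 1 and 2, at 0.372, 0.549 and 0.427 (difference -0.42, SE 0.05, limma adjusted p = 3.78e-06). It was below all sets of cluster 1 and overlapped cluster 2. Scn2b was lower too, at 0.721, 0.614 and 0.707 (limma adjusted p = 0.0298). Scn1a, a sodium alpha gene linked to epilepsy, was higher, at 0.415, 0.447 and 0.303 (limma adjusted p = 0.0177), and Scn3a was lower, at 0.5, 0.772 and 0.396 (limma adjusted p = 0.0454). The ranges of Scn1a, Scn2b and Scn3a overlapped those of clusters 1 or 2. Thinned cells kept the call for Scn3a but not for Scn1a or Scn2b.

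Cacna2d1, the alpha2delta subunit through which gabapentin acts on pain, stood at 1.66, 2.19 and 1.97 in the high-count cells. No set of clusters 1 or 2 exceeded 1.19. The level was 2.31-fold higher, with a difference of 0.35 (SE 0.05) and a limma adjusted p of 7.71e-05, or 0.175 without the set as a block. Cacna2d3 was higher by less, at 0.878, 0.911 and 0.817 (difference 0.15, SE 0.05, limma adjusted p = 0.0238), and its difference was 0.06 in thinned cells. No pore or beta gene of the calcium channels was called. Cacna1b stood at 0.518, 0.936 and 0.442, and Cacnb1, a beta subunit, at 0.68, 0.671 and 0.528 (limma adjusted p = 0.989 and 0.0981).

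Cacng2 stood at 0.528, 0.648 and 0.346, with a difference of 0.32 (SE 0.04) and a limma adjusted p of 1.21e-05. In each set it was above clusters 1 and 2 of that set, although its Set 3 value lay below Set 2 of cluster 2. Cacng3, at 0.189, 0.133 and 0.214, and Cacng4, at 0.0658, 0.0385 and 0.0676, were lower than all sets of clusters 1 and 2 (differences -0.26 and -0.19, limma adjusted p = 8.49e-05 and 0.00015). Cacng5 was not called in these cells. Trpv2, a channel of the TRPV family, stood at 0.686, 0.945 and 1.67 (limma adjusted p = 0.0573). Cacng2, Cacng3, Cacng4 and Scn3b were among the genes called in each of the 13 alternatives. Without Set 2, 6 genes were called, 5 without the set as a block and 6 with no filter on low values.

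The low-count cells of cluster 3 held 168828 counts in all, so that 3 counts correspond to 0.178 counts per 10000. On the summed counts, limma with voom weights called 1 of 35 channel genes higher and 1 lower than in the high-count cells, with 16.2% and 3.79% of all genes. The higher gene was Cacng5, with 1, 2 and 0 counts in the low-count cells (limma adjusted p = 0.00329). The lower was Cacna2d3, with 1, 1 and 1 counts (limma adjusted p = 0.0348). In simulated data this test called 122 of 9957 genes that had not been changed. With at least 100 counts required, it called none of the channel genes. With median-of-ratios factors 7 channel genes were called, all lower, and 12.1% of all called genes were higher, against 81.0% with the library totals. At this depth the calls are not relied on, and pooled counts are given instead, with exact intervals for counting error only.

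Pooled over the sets, the 51 channel genes had 137 counts in the low-count cells and 4808 in the high-count cells, or 8.11 and 14.4 counts per 10000. The ratio was 0.565 (95% interval 0.473 to 0.67). The sympathetic neuron markers had a ratio of 0.498 (0.47 to 0.528), while the endothelial, glial and mural markers had ratios of 13.6, 8.75 and 98.7. Fibroblast markers had the largest ratio, 2848 (1215 to 8799), with 718 counts against 5. Their sum ran from 0 to 43.0 counts per 10000 over the sets of the low-count cells. Macrophage markers had 4 counts on each side (ratio 19.8), and sensory neuron and chromaffin markers had ratios of 0.487 and 0.596. The sum of the sympathetic neuron markers ran from 22.0 to 98.5 counts per 10000 over the sets of the low-count cells, where Set 2 held 106681 of the 168828 counts, against 135 to 154 in the high-count cells. The cholinergic markers had a ratio of 1.34 (1.05 to 1.68). The part of other cells' RNA in this was not tested.

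Of the 51, 11 had more than 3 counts in the low-count cells. Over all 51, the interval lay below 1 for 9 genes, of which 6 had more than 3 low-side counts, and above 1 for 1 gene. That gene was Scn3b, with 17 counts against 145, or 1.01 against 0.433 counts per 10000, a ratio of 2.33 (1.32 to 3.85). Its counts were 1, 14 and 2 in Sets 1, 2 and 3, so most came from Set 2. The low-count cells of these sets held 44859, 106681 and 17288 counts in all. Sets 1 and 3 thus rest on 1 and 2 counts, and the pooled ratio does not show that each set was higher. Cacna2d1 had 14 counts against 562, a ratio of 0.494 (0.268 to 0.836), and Scn9a had 13 against 483, a ratio of 0.534 (0.282 to 0.922). Cacnb3 had 11 against 457, a ratio of 0.477 (0.237 to 0.862). The intervals of these 3 genes held the ratio of the neuron markers, and that of Scn3b lay above it. Cacna2d3 had the smallest ratio of any gene with a low-side count whose interval lay below 1, at 0.198 (0.0405 to 0.583).

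**Figure D3:**
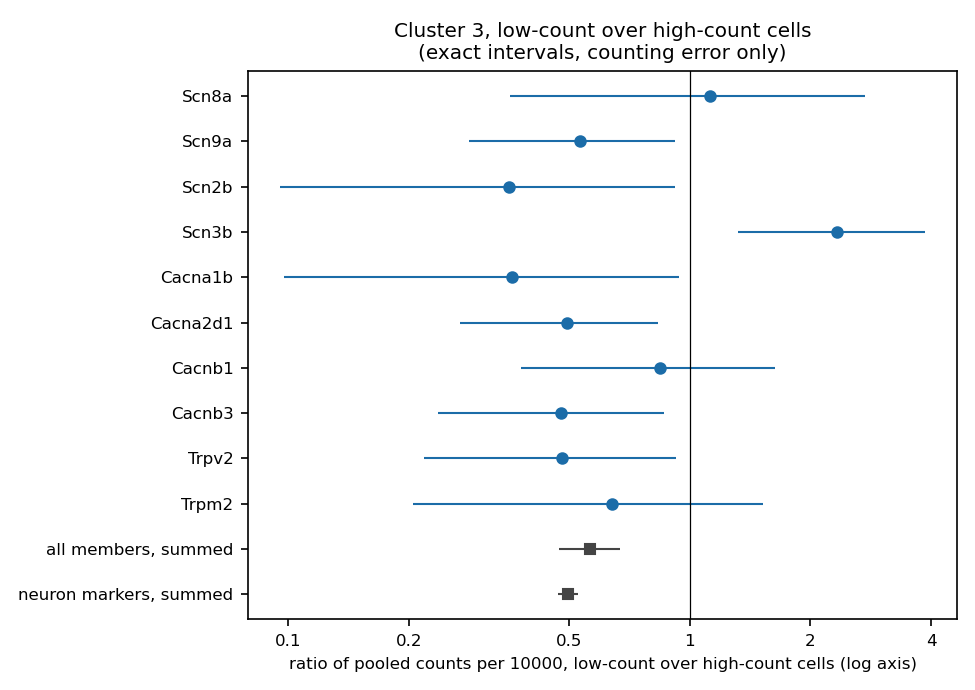
Ratio of counts per 10000 in the low-count over the high-count cells of cluster 3 (x axis, log scale) with 95% intervals, for 10 of the channel genes with more than 3 low-side counts and for the sums of the channel genes and of the sympathetic neuron markers. Scn3b lies at 2.33, right of 1, and the sum of the channel genes at 0.565.

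The remaining 20 of the 51 genes did not pass the filter in the cluster comparisons and were not tested there. Cacna1e, an R-type pore, stood at 0.027, 0.0811 and 0.0741 in cluster 1 and at 0.012, 0.00591 and 0.00872 in cluster 2, and it was listed at 0 in every set of cluster 4. Cacna1d, an L-type pore, stood at 0.0671, 0.0598 and 0.0372 in cluster 1 and was listed at 0 in Sets 1 and 3 of cluster 4. Every set of cluster 1 was above every set of cluster 2 for Cacna1e. Scn11a, a sodium channel of sensory neurons, had means of 0.0266 ± 0.015 in cluster 1 and 0.00836 ± 0.0051 in cluster 2 (SD, n = 3). Piezo2, a channel opened by force on the membrane, was listed at 0 in Sets 1 and 3 of all classes. In Set 2 it stood at 0.00433 in cluster 1, 0.0017 in cluster 2, 0.00822 in the high-count cells of cluster 3 and 0.0118 in cluster 4. Trpv1, the capsaicin receptor, stood at 0.00695 in Set 2 of cluster 1 and was listed at 0 in clusters 2 and 4. Trpv6, an epithelial calcium channel, was at 0.0221 or less in every set of clusters 1, 2 and 4.

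The partners of these channels were followed in a list of 54 genes, of which 45 were in the table and 31 passed the filter. None was called between clusters 1 and 2 by limma on the mean log values, beside 860 of all 10525 genes. At an unadjusted limma p under 0.05 there were 4, beside 1794 of all genes. With voom weights 9 were called, beside 2351 of all 10525 genes. With median-of-ratios size factors 2 were called, beside 796, and in thinned cells 0, beside 408 of 10518.

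In cluster 4, 7 of the 31 partners tested were higher and 6 were lower, beside 11.6% and 11.6% of all genes. Fgf13 and Pex5l, among the 7, passed the filter only through cluster 4, so their values are a description. Fgf13, an intracellular factor that binds sodium channels, stood at 0.736, 0.879 and 1.06, against 0.0372 at most in any set of clusters 1 and 2. The level was 55.3-fold higher (difference 0.80, SE 0.03). Rgs2, a regulator that shortens G protein signals, stood at 0.918, 1.08 and 0.733 (difference 0.62, limma adjusted p = 1.4e-10). Both were above every set of clusters 1 and 2. Stac, an adaptor of L-type channels, was lower, at 0.302, 0.317 and 0.275 (difference -0.42, limma adjusted p = 3.64e-06). Rimbp2, which ties calcium channels to the active zone, was lower at 0.369, 0.428 and 0.512 (difference -0.34, limma adjusted p = 7.87e-06). Pex5l, which guides HCN channels to the membrane, was the only HCN partner on the list. Gem and Cachd1 were called higher and, with Rgs2, Stac and Rimbp2, in each of the 13 alternatives.

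In the high-count cells of cluster 3, 3 of the 31 partners tested were higher and 1 was lower, beside 10.8% and 5.03% of all genes. Rgs2 (difference 0.16, limma adjusted p = 0.00922), Stac (0.20, limma adjusted p = 0.0112) and Orai1, the pore of store-operated calcium entry, were higher, and Rimbp2 was lower (-0.20, limma adjusted p = 0.00448). None of the 4 was called in thinned cells.

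The sets were compared within clusters 1 and 2, with 1 value per plate, the mean of the levels in cluster 1 and cluster 2. Of the 30 channel genes that passed the filter, 15 differed between sets at a limma adjusted p under 0.05. Over all 10421 genes tested 42.2% did, so that a call is common in this comparison. Plates of a set share their pooled mice, and p therefore measures the spread between plates only. Of the 15 genes, 13 were highest in Set 2 and 12 were lowest in Set 3. Among all genes called, 45% were highest in Set 2 and 40.1% were lowest in Set 3. Set 2 was also the deepest, with median counts of 46238 in its cluster 2 cells against 39116 in Set 1 and 35748.5 in Set 3, and thinning to one depth left 10 channel genes called.

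All 6 sodium alpha genes tested were called, and all were highest in Set 2 and lowest in Set 3. Scn3a stood at 0.562, 0.677, 0.793 and 0.681 on the plates of Set 1, at 1.1, 1.23, 0.962 and 0.818 in Set 2 and at 0.593, 0.57 and 0.461 in Set 3. Every plate of Set 2 was above every plate of the other sets (limma adjusted p = 1.14e-05). Scn2a, a sodium channel known for its role in the brain, had set means of 0.38, 0.531 and 0.283 (limma adjusted p = 0.00089). Scn9a had set means of 1.83, 1.89 and 1.48 (limma adjusted p = 0.0104), and its Set 2 plates, from 1.64 to 2.15, overlapped those of Set 1. Scn1a (limma adjusted p = 0.0115), Scn8a (0.0248) and Scn7a (0.0344) followed the same order. The genes Scn3a, Scn2a, Scn1a, Scn9a and Scn7a are the neighbours on chromosome 2 named above. In thinned cells Scn8a and Scn7a were not called, and Scn7a had a limma adjusted p of 0.872.

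Cacna2d1 stood at 0.721, 0.99, 0.847 and 0.886 on the plates of Set 1, at 1, 1.27, 1.08 and 0.901 in Set 2 and at 0.619, 0.603 and 0.511 in Set 3. Every plate of Set 3 was below the others (limma adjusted p = 2.33e-05). Cacna1b stood at 0.687, 0.634, 0.695 and 0.735 in Set 1, at 0.693, 0.867, 0.806 and 0.851 in Set 2 and at 0.485, 0.484 and 0.509 in Set 3, again with Set 3 lowest on every plate (limma adjusted p = 0.000172). Cacng2 had set means of 0.186, 0.29 and 0.167 (limma adjusted p = 0.00256). It was not called in cluster 1 alone.

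Trpv2 went the other way. It stood at 0.873, 0.667, 0.796 and 0.68 in Set 1, at 0.698, 0.787, 0.813 and 0.747 in Set 2 and at 1.04, 1.09 and 1.18 in Set 3 (limma adjusted p = 0.000308). Every plate of Set 3 was above every other plate. Trpc1, a TRPC subunit, had set means of 0.0966, 0.121 and 0.0562 (limma adjusted p = 0.0102), and the limma adjusted p was 0.138 in thinned cells. Cells of cluster 1 alone gave 9 calls, and without plate 3 of Set 3 there were 8.

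**Figure D4:**
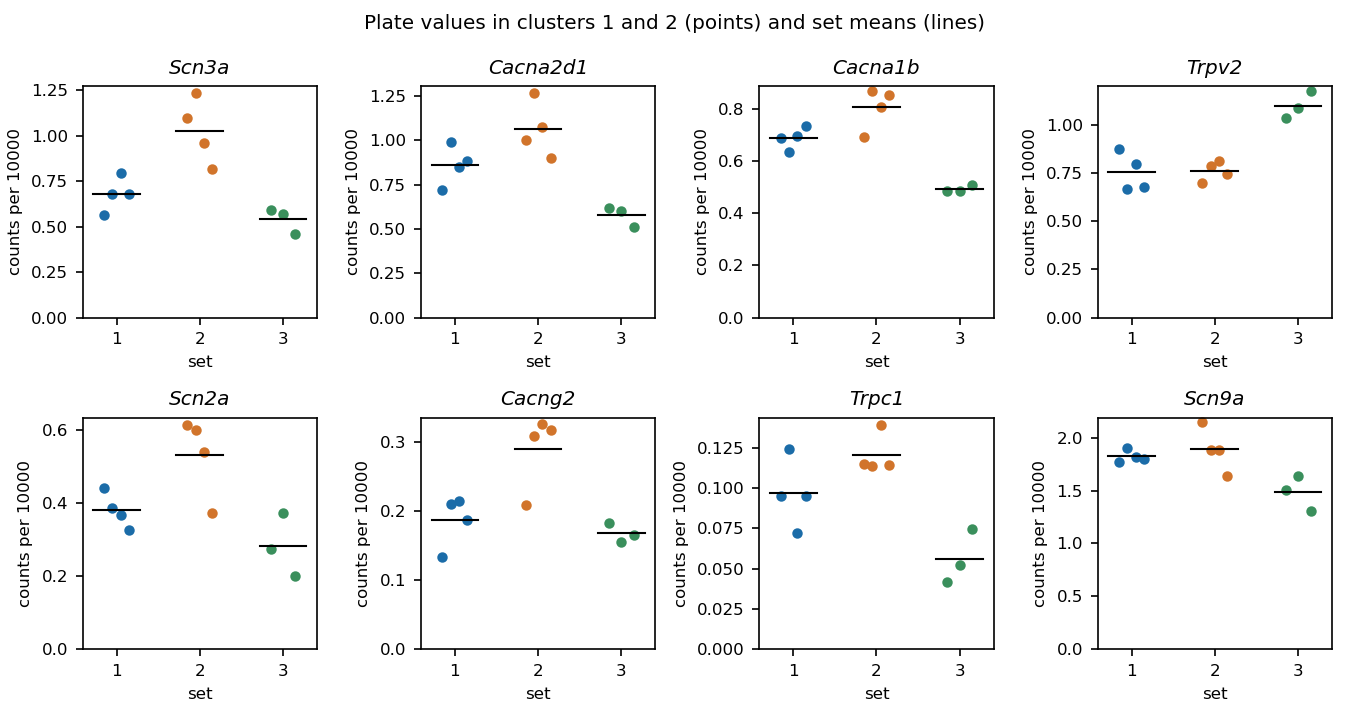
Plate values in counts per 10000 (y axis), the mean of clusters 1 and 2, for the 8 channel genes with the smallest p between sets (x axis: set), with 1 point per plate and a line at the set mean. Scn3a is highest in Set 2 and Trpv2 in Set 3.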

How the data were processed

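Single-cell RNA of sorted stellate ganglion cells was read at 3' ends, with cDNA pooled within a plate, per the labels' protocols. The tools named are STAR 2.5.3a, SAMtools 1.4.1, featureCounts 1.5.3 and Seurat (no version), with the genome build GRCm38, per the submitters' processing notes. Their settings are not stated there. The values the authors deposited are the natural log of 1 plus counts per 10000 in each cell. Cluster numbers were also deposited by the authors as labels (unit: other). A deposited sort record was not used, since its wells could not be tied to cells of the table. Whole counts were recovered for 100% of non-zero values (tolerance 0.001). All 96 well barcodes recur on several plates, so cells are told apart by plate and barcode. No doublet caller was run.

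The channel genes, partner list, markers and tests were chosen with earlier results of these data known. limma 3.58.1 (R 4.3.3, trend and robust) was fitted to log2(1 + counts per 10000) averaged over cells, a scale that understates changes of low genes, for clusters 1, 2, 4 and the high-count cells of cluster 3 in each set, with the set as a block. Genes needed a mean of 0.05. The plan named another test for whole counts. The deposited unit is a log, so limma was used. Cluster 3 was divided at the threshold of largest between-class variance of log10 counts. Its sides were compared with voom on summed counts of at least 10. Sets were compared by an F test over plates. Tests were two-sided, with Benjamini-Hochberg adjustment over all genes and a threshold of 0.05. Pooled ratios have exact 95% binomial intervals.

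Deviations from class means correlated at 0.483 to 0.866 between classes of the same set, which holds the same mice. Alternatives were no block, summed counts with median-of-ratios or voom, thinning to 15000 counts (791 of 878 cells), a pseudocount of 0.5, no filter, leaving out glial-rich cells, each set or plate, and other cuts of cluster 3. Requiring 100 counts in the split, and counts on every plate, were added after seeing the data. On simulated clusters the test recovered 41 of 100 changes of 2-fold and 68 of 100 of 4-fold, and it called 14 of 10523 genes left as they were. For simulated sets these numbers were 74, 95 and 10. The simulated clusters were random parts of cluster 1, fitted without the other classes, and the simulated sets were cells dealt at random to plates. Real differences between classes over sets, and between plates, were thus left out. These numbers therefore do not give the error of the real comparisons.

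Named genes are the called channel genes (up to 8 per direction), the 2 with the highest levels in each family, a fixed list including Scn9a and Piezo2, and up to 2 called partners per direction. Other untested genes, and Scn7a, Pex5l, Gem, Cachd1 and Orai1, were named outside this rule after their values were seen. Some channel genes are counted but not reported here. Other tools were Python 3.11.15, scipy 1.17.1, numpy 2.4.6, matplotlib 3.10.9 and pandas 2.3.3.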

Additional observations from a re-analysis of the deposited data

Results flagged for a closer look

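The 8 channel genes with the smallest p between sets were examined for plates that stood apart within a group of 4. Cacng2 on plate 5, the first plate of Set 2, stood at 0.209 counts per 10000, where the other plates of that set ranged from 0.309 to 0.325. Trpc1 on plate 7, the third plate of Set 2, stood at 0.139, and the nearest plate of that set was at 0.115. These were 2 of 16 groups of 4 plates looked at, and chance gives about 1 in 20.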

How the results depend on the processing

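Channel genes called between clusters 1 and 2 were 7, and 2 without the replicate block, 17 with voom weights, 2 in thinned cells and 3 to 5 with a set left out. In cluster 4 they were 17, and 9 without the replicate block and 8 thinned (12 to 14 with a set left out). In the high-count cells of cluster 3 they were 10, and 5 without the replicate block, 6 with no filter and 6 to 7 with a set left out. In the split they were 2, and 19 with mean log values, 7 with median-of-ratios factors, 17 with at least 1 count, 0 with at least 100, and 1 to 4 with a set left out. Between sets they were 15, and 9 in cluster 1 alone and 8 to 14 with a plate left out. Genes called in all were, in the same order of comparisons, 860 (276 without the replicate block, 2351 voom, 408 thinned, 534 no filter, 410 to 537 with a set left out), 2437 (1042 without the replicate block, 1304 thinned), 1666 (470 without the replicate block, 758 thinned, 1020 no filter, 835 to 1049), 2431 (4687 mean log, 8217 with 1 count, 574 with 100 counts, 1149 to 1969) and 4398 (2778 in cluster 1 alone). The share of called genes that were higher was 68.2% in the high-count cells of cluster 3 (57.9% without the block), 41.7% in cluster 1 against cluster 2 (60.9% without the block, 52.8% no filter) and 81.0% in the split (8.51% mean log, 53.1% with 100 counts). In the split the median of all genes was 0.61, against -0.11 with mean log values, -1.30 with median-of-ratios factors and -0.11 with 100 counts.

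Of 883 values of single genes under an alternative, 751 were counted as the same, 107 lost the call, 8 gained it and 17 changed sign. The same means the same direction and side of the threshold. For the 136 values between sets, only the side of the threshold was compared. Scn7a was not among the genes of these values. Scn8a in cluster 4 was the only called gene among the 17, at -0.0188 thinned. In cluster 1 against 2, Hcn3 was at -0.00661 thinned and from -0.0384 to 0.059 with a set left out. In cluster 4, Cacna1b was at -0.0913 with voom and from -0.0266 to 0.0495 with a set left out, and Scn9a at -0.136 thinned, -0.0144 without glial-rich cells and from -0.015 to 0.136 with a set left out. In the high-count cells, Cacna1b was at -0.154 with median-of-ratios factors, -0.0739 with voom, -0.051 thinned, -0.000905 with the cut at 20000 and from -0.0597 to 0.0561 with a set left out. There, Hcn3 was at -0.0174 with median-of-ratios factors and from -0.00751 to 0.0247 with a set left out, and Trpc6 at -0.0162 thinned. Some settings leave fewer sets or genes, and the cause of these changes was not tested. Genes below 0.05 counts per 10000 and the low-count cells rest on few counts.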

Other observations

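Summed over a family, the alpha2delta genes stood at 2.97 counts per 10000 in the high-count cells of cluster 3, against 1.56 in cluster 1, 1.93 in cluster 2 and 1.64 in cluster 4. The calcium channel gamma genes summed to 1.55 in cluster 4, against 1.05, 1.14 and 0.831 in clusters 1 and 2 and the high-count cells. The calcium beta genes summed to 1.25 in cluster 4, against 2.18 in cluster 1, 1.83 in cluster 2, 2.09 in the high-count cells and 1.09 in the low-count cells. HCN genes summed to 0.958 in cluster 4, against 0.542, 0.63 and 0.674 in clusters 1 and 2 and the high-count cells. These sums are descriptions, with no test.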
